A study of Mus musculus with 8 samples.

Results

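Interferon-stimulated genes are the genes that cells switch on when an interferon reaches them. A list of 39 of them, picked out by symbol with earlier results of these data known, was followed among the 24940 genes counted in mouse liver. All 39 were found in the count table, and all 39 passed the expression filter that left 12340 genes for testing. RNA was sequenced from liver tissue of C57BL/6 males, 4 of the FXRKO genotype (livers 1 to 4) and 4 of the BCL6LKOFXRKO genotype (livers 5 to 8). Every mouse was homozygous for the loss of FXR, the bile acid receptor encoded by *Nr1h4*, in the whole body and carried floxed *Bcl6* alleles (Bcl6 fl/fl). The BCL6LKOFXRKO mice also carried Alb-Cre, whose albumin promoter directs the deletion of *Bcl6*, a transcriptional repressor, to hepatocytes. BCL6 in the other cells of the liver was not measured. The labels give no age and no pairing of livers, and livers with intact FXR were not analysed here, so each value below is BCL6LKOFXRKO against FXRKO.

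Type I and type III interferons bind receptors whose kinases, JAK1 and TYK2, phosphorylate STAT proteins. A complex that includes STAT2 and IRF9 then binds the interferon-stimulated response element (ISRE), while type II interferon acts at the gamma-activated site (GAS). The induced genes include RNA and DNA sensors, enzymes that activate RNA decay, proteins that block viral translation or assembly, and GTPases that attack vacuoles holding pathogens. In liver, both hepatocytes and the resident macrophages, Kupffer cells, respond to interferon. BCL6 binds a sequence that resembles the GAS, which STAT factors also recognise.

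The interferon-stimulated genes that passed the test were all higher in BCL6LKOFXRKO livers. Of the 39, 16 were called higher (41.0%), 0 were called lower, and 23 were not called in either direction (edgeR quasi-likelihood test, Benjamini-Hochberg adjusted p under 0.05 over all tested genes). Over all tested genes, 16.2% were called higher and 13.5% lower. Without adjustment, 22 members had a p under 0.05 with a higher value and 0 with a lower one. DESeq2 also called 16 higher and 0 lower, with 13.4% of all genes it tested higher and 11.7% lower. Limma voom called 14 higher and 0 lower, with 17.5% and 15.5% of all tested genes. The 39 log2 fold changes had a median of 0.40 and ran from -0.34 for *Iigp1* to 1.40 for *Oasl1*, against a median of 0.010 over all tested genes. All 3 *Ifit* genes, 4 of 6 *Oas* family genes, *Rsad2*, *Zbp1*, *Ifi27* and *Irf7* rose, whereas *Stat2*, *Irf9*, both *Mx* genes and *Irgm1* did not pass the test.

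Separation of the single livers gave a similar count. For 15 members all 4 BCL6LKOFXRKO livers lay above all 4 FXRKO livers, for 0 members all 4 lay below, and for 24 the groups overlapped. Among all tested genes, 16.1% were separated upwards and 15.2% downwards. Of the 16 called members, 13 were separated and 3 were not (*Oasl2*, *Gbp2* and *Irgm2*), while *Usp18* and *Xaf1* were separated but not called. Because bulk liver tissue was sequenced, a change in how many cells carry a transcript and a change in its amount per cell cannot be told apart.

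**Figure D1:**
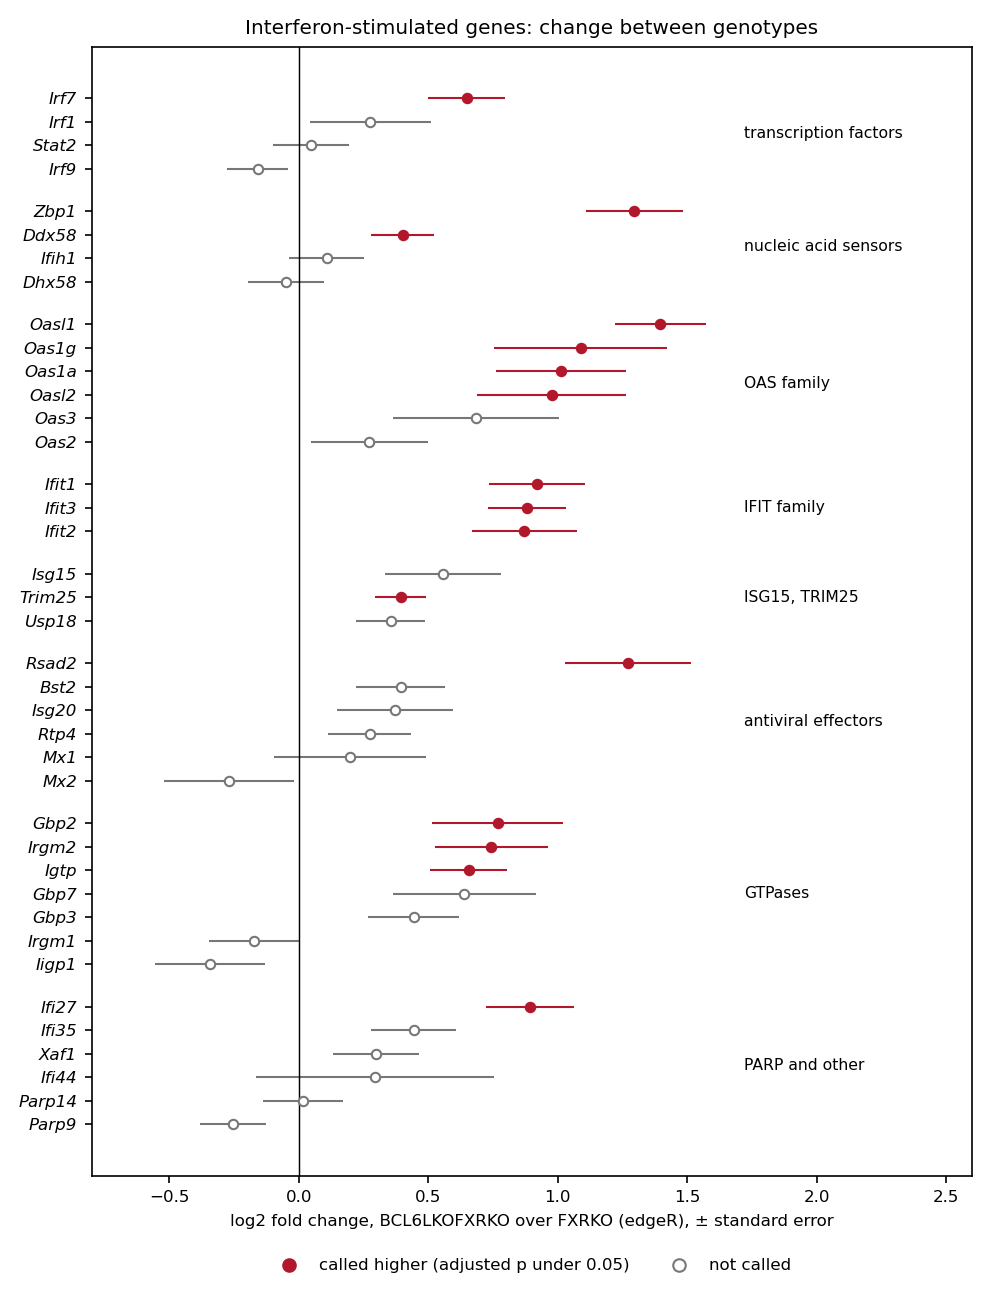
Log2 fold changes of the 39 interferon-stimulated genes, BCL6LKOFXRKO over FXRKO, from edgeR, with bars of 1 standard error and genes grouped by role. The 16 filled points are the members called higher, all to the right of 0, and the 6 members left of 0 are open points that were not called.

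The sequencing gave 7586241 to 11839503 counts on genes per liver, and levels below are CPM, that is, counts relative to the TMM-adjusted total of each library. *Bcl6* itself (mm10 chr16:23965050-23981283) was at 56.3, 65.2, 21.2 and 55.6 CPM in the FXRKO livers and 11.9, 4.61, 5.55 and 7.72 CPM in the BCL6LKOFXRKO livers, so all 8 livers matched the *Bcl6* part of their labels. *Nr1h4* was still counted in both genotypes, at 56.7 to 62.6 CPM in the FXRKO livers and 39.4 to 48.1 CPM in the BCL6LKOFXRKO livers, with a log2 fold change of -0.46 ± 0.10 (SE, adjusted p = 0.00497), where SE is the standard error, the value after ± for every log2 fold change below. Reads over the remaining exons of a deleted gene can be counted, and no liver with intact FXR was analysed here for comparison. The albumin transcript took 4.04 to 5.16% of all counts in FXRKO livers and 11.9 to 13.2% in BCL6LKOFXRKO livers. Scaling by total counts alone, in which this share enters, moved the median of all tested genes to -0.15 and that of the members to 0.24. That scaling called 12 members higher and 1, *Parp9*, lower, and 11.4% of all tested genes higher and 23.9% lower.

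The promoter windows of 4 of the members that rose are shown because they hold the sequence through which interferon signalling is known to act. The ISRE core was searched as GAAANNGAAA on both strands of RefSeq windows (GRCm38.p6) from 250 bases before to 50 bases after each gene start, and its matches are in capitals. Each window is printed 5′ to 3′ along its gene. The windows are those of *Ifit3* (chr19:34583279-34583578, plus strand), *Rsad2* (chr12:26456403-26456702, minus strand), *Ifit1* (chr19:34640639-34640938, plus strand) and *Igtp* (chr11:58199306-58199605, plus strand).
Ifit3: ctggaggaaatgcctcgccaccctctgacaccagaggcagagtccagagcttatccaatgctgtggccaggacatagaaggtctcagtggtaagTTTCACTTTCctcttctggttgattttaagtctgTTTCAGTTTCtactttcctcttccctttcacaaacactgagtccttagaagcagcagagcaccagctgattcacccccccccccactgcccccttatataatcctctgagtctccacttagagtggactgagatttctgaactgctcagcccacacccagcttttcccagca
Rsad2: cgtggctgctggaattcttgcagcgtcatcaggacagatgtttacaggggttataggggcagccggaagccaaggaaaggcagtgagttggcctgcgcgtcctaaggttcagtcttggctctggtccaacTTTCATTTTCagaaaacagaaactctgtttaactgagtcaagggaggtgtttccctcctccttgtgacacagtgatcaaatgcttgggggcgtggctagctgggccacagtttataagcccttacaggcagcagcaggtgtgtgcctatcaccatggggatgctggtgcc
Ifit1: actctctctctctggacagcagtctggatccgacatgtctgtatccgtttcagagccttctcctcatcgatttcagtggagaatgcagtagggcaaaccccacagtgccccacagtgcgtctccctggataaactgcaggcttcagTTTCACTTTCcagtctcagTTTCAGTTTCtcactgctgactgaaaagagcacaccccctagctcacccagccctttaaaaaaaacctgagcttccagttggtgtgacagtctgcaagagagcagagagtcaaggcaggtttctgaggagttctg
Igtp: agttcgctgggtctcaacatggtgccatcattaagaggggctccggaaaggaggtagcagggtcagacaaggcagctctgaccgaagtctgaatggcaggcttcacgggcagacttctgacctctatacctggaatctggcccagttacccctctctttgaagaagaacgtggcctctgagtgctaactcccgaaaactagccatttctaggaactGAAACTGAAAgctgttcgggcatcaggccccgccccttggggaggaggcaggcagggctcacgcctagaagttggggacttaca
Counted from the gene start as base 0, the cores began at -156 and -122 in *Ifit3*, at -120 in *Rsad2*, at -104 and -85 in *Ifit1* and at -34 in *Igtp*. In the first 3 windows the match reads on the strand opposite to the gene, as TTTC repeats, and in *Igtp* on the gene's own strand.

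Windows were found for 28 of the 39 members, and 17 of the 28 (60.7%) held an ISRE core, compared with 3.99% of the 27025 genes with a window. The core did not separate members that rose from those that were not called, being present in 9 of 14 called members and in 8 of 14 others. *Isg15* held 3 overlapping cores and was not called. The GAS, searched as TTCNNNGAA, was found in 9 of 28 members (32.1%) and in 9.55% of all genes with a window. A BCL6-type sequence, TTCCTNGAA, each match of which also counts as a GAS match, was found in 5 of 28 members (17.9%) and in 1.86% of genes with a window. The 5 were *Ifit2*, *Igtp*, *Irgm2*, *Bst2* and *Gbp7*, of which the first 3 were called higher. The BCL6-type sequence was thus in 3 of 14 called members and 2 of 14 others, and the GAS in 4 and 5. Neither sequence separated the members that rose from the others. In *Igtp* the BCL6-type match (-45 to -37) lay just before the ISRE core (-34 to -25), *Irgm2* had the same order (-75 to -67, then -64 to -55), and in *Bst2* (-136 to -128) it overlapped a core that began at -130. A match describes these letters and is not a measurement of binding. *Dhx58*, *Zbp1*, *Oas2*, *Usp18*, *Mx1*, *Mx2*, *Rtp4*, *Iigp1*, *Parp9*, *Parp14* and *Ifi27* had no entry.

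**Figure D2:**
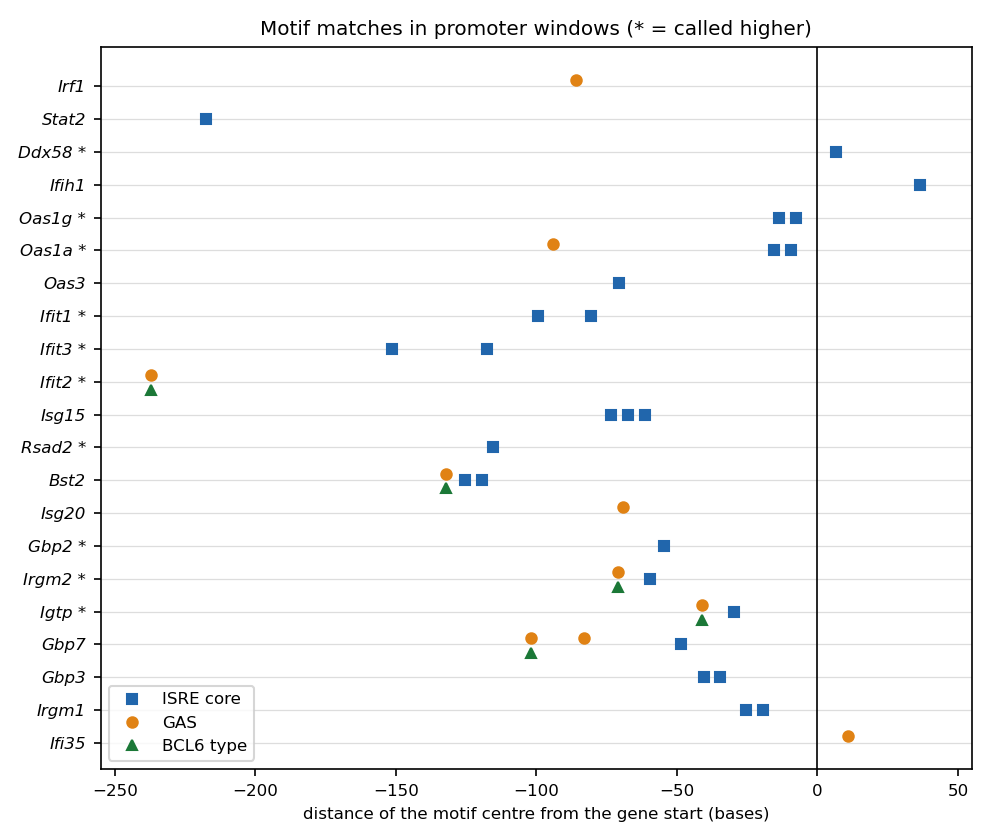
Positions of ISRE core, GAS and BCL6-type matches by distance in bases of the match centre from the gene start (vertical line), for the members with at least 1 match, with called members starred. The ISRE cores lie between -156 and the gene start except in *Stat2*, *Ddx58* and *Ifih1*, and the triangles of the BCL6-type sequence coincide with circles of the GAS.

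The *Oas* family encodes sensors of double-stranded RNA, most of which make 2′-5′ oligoadenylate and so activate RNase L, while the OASL proteins lack this activity in part or whole. *Oasl1* (mm10 chr5:114923240-114937911), reported to restrain translation of IRF7, was at 17.5, 13.4, 15.9 and 10.2 CPM in the FXRKO livers and 46.3, 32.2, 33.0 and 38.2 CPM in the BCL6LKOFXRKO livers. Its groups were far apart, with a log2 fold change of 1.40 ± 0.18 (SE, adjusted p = 7.75e-05), the largest change among the 39. Its neighbour *Oasl2* (mm10 chr5:114896934-114912245) was at 12.0, 7.37, 5.80 and 8.99 CPM in the FXRKO livers and 9.06, 24.5, 17.4 and 16.6 CPM in the BCL6LKOFXRKO livers. Liver 5 lay among the FXRKO livers and liver 6 was highest, and the call (0.98 ± 0.29, adjusted p = 0.0252) was lost in 7 of 15 alternative analyses, namely with limma voom (adjusted p = 0.122) and without liver 2 (0.0663), 3 (0.0633), 4 (0.0545), 6 (0.0562), 7 (0.0552) or 8 (0.0775).

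The other 4 members of the family lie in 1 cluster (mm10 chr5:120730333-120907525). *Oas1a*, a synthetase, was at 3.95, 3.25, 2.69 and 3.41 CPM in the FXRKO livers and 4.94, 8.25, 4.87 and 8.90 CPM in the BCL6LKOFXRKO livers, which was a log2 fold change of 1.01 ± 0.25 (SE, adjusted p = 0.00858). Its close copy *Oas1g* was at 0.937, 1.25, 0.537 and 1.32 CPM in the FXRKO livers and 1.91, 2.06, 1.66 and 3.0 CPM in the BCL6LKOFXRKO livers, and the FXRKO livers of both genes were below every BCL6LKOFXRKO liver. For *Oas1g* the change was 1.09 ± 0.34 (adjusted p = 0.0271), no longer called without liver 1 (0.0625), 3 (0.0809) or 8 (0.0813). Reads shared by the near-identical *Oas1* genes were counted only where they mapped to 1 location, so the split between them is uncertain. *Oas2* and *Oas3*, the larger synthetases, overlapped between genotypes, at 5.70 to 9.12 CPM in the FXRKO livers and 6.75 to 13.5 CPM in the BCL6LKOFXRKO livers for *Oas2* and 1.23 to 3.23 CPM in the FXRKO livers and 2.01 to 4.0 CPM in the BCL6LKOFXRKO livers for *Oas3*. Their log2 differences were 0.27 ± 0.23 (adjusted p = 0.394) and 0.69 ± 0.32 (adjusted p = 0.126). Without liver 1, which held the highest FXRKO value of *Oas3*, that gene was called higher (log2 fold change 0.99, adjusted p = 0.0416).

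The *Ifit* genes encode proteins that bind foreign RNA ends and block its translation, and the 3 members lie side by side (mm10 chr19:34550694-34650009). *Ifit1* was at 7.60, 5.0, 6.66 and 7.85 CPM in the FXRKO livers and 10.2, 13.1, 15.5 and 12.8 CPM in the BCL6LKOFXRKO livers. *Ifit2* was at 3.43, 4.25, 2.90 and 4.07 CPM in the FXRKO livers and 6.35, 6.67, 8.18 and 5.63 CPM in the BCL6LKOFXRKO livers. *Ifit3* was at 7.08, 6.50, 6.77 and 5.87 CPM in the FXRKO livers and 12.8, 10.4, 12.4 and 12.6 CPM in the BCL6LKOFXRKO livers. No liver overlapped for any of the 3, and *Ifit3* had the narrowest spread. The log2 fold changes were close together, 0.92 ± 0.18 (adjusted p = 0.00243) for *Ifit1*, 0.87 ± 0.20 (adjusted p = 0.00602) for *Ifit2* and 0.88 ± 0.15 (adjusted p = 0.000739) for *Ifit3*, and each was called in all 15 alternatives. Even so these are low transcripts in both genotypes, with means of 6.78, 3.66 and 6.55 CPM in FXRKO livers for *Ifit1*, *Ifit2* and *Ifit3*.

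Of the 6 antiviral effectors 1 was higher (16.7%), near the 16.2% of all tested genes. This was *Rsad2* (mm10 chr12:26442743-26456452), which encodes viperin, an enzyme that makes a chain-terminating nucleotide. It was at 10.9, 9.25, 6.77 and 8.70 CPM in the FXRKO livers and 32.6, 14.2, 21.6 and 17.5 CPM in the BCL6LKOFXRKO livers. The genotypes were separated and liver 5 was highest, with a log2 fold change of 1.27 ± 0.24 (SE, adjusted p = 0.00183). *Bst2*, which encodes tetherin and holds budding virions at the cell surface, was at 144, 128, 106 and 104 CPM in the FXRKO livers and 147, 153, 119 and 214 CPM in the BCL6LKOFXRKO livers. Liver 7 fell within the FXRKO range and liver 8 was far above the rest, and the difference (0.39 ± 0.17, adjusted p = 0.102) was called only without liver 7 (log2 fold change 0.51, adjusted p = 0.0363).

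The remaining effectors overlapped between genotypes. The dynamin-like GTPase genes *Mx1* and *Mx2* were at 1.42 to 2.29 CPM in the FXRKO livers and 1.66 to 3.03 CPM in the BCL6LKOFXRKO livers for *Mx1* and 3.55 to 5.75 CPM in the FXRKO livers and 2.54 to 4.68 CPM in the BCL6LKOFXRKO livers for *Mx2*. They pointed in opposite directions, with log2 differences of 0.20 ± 0.29 (adjusted p = 0.645) and -0.27 ± 0.25 (adjusted p = 0.448), neither of which passed. *Isg20*, an exonuclease, and *Rtp4*, a chaperone of membrane receptors that also inhibits viruses, had differences of 0.37 ± 0.22 (adjusted p = 0.233) and 0.27 ± 0.16 (adjusted p = 0.223). *Rtp4* was called once, without liver 8 (0.39, adjusted p = 0.0496).

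Of the 4 nucleic acid sensors, those encoded by *Zbp1* and *Ddx58* rose (50%, against 16.2% of all tested genes). *Zbp1* (mm10 chr2:173206612-173218922), which recognises Z-form nucleic acid and can start necroptosis, was at 11.1, 7.37, 6.77 and 7.95 CPM in the FXRKO livers and 16.4, 25.8, 19.9 and 19.8 CPM in the BCL6LKOFXRKO livers. The lowest BCL6LKOFXRKO liver was above the highest FXRKO liver, and the change was a log2 fold change of 1.30 ± 0.19 (SE, adjusted p = 0.000239), called in all 15 alternatives. *Ddx58*, which encodes the RNA sensor RIG-I, was at 25.4, 23.0, 25.1 and 27.2 CPM in the FXRKO livers and 35.7, 33.5, 36.2 and 27.9 CPM in the BCL6LKOFXRKO livers. Separation was narrow, between livers 4 and 8, and a log2 fold change of 0.40 ± 0.12 (SE, adjusted p = 0.025) was lost in 7 of 15 alternatives, with total counts alone (0.161) and without liver 1 (0.0528), 2 (0.0813), 3 (0.0626), 5 (0.0724), 6 (0.0532) or 7 (0.0627). The related *Ifih1*, encoding the RNA sensor MDA5, and *Dhx58*, encoding their regulator LGP2, ranged over 31.7 to 36.4 CPM in the FXRKO livers and 27.5 to 44.5 CPM in the BCL6LKOFXRKO livers for *Ifih1* and 10.6 to 14.5 CPM in the FXRKO livers and 11.1 to 13.3 CPM in the BCL6LKOFXRKO livers for *Dhx58*. Neither passed the test, with 0.11 ± 0.14 (adjusted p = 0.608) and -0.050 ± 0.15 (adjusted p = 0.827).

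The transcription factors of the response were mostly not called, with 1 of 4 higher (25%, against 16.2% of all tested genes). *Irf7* (mm10 chr7:141263183-141266424), the factor that amplifies interferon production, was at 43.3, 46.2, 35.6 and 39.9 CPM in the FXRKO livers and 55.4, 61.0, 56.7 and 85.2 CPM in the BCL6LKOFXRKO livers. All 4 BCL6LKOFXRKO livers were above the FXRKO livers and liver 8 was highest, with a log2 fold change of 0.65 ± 0.15 (SE, adjusted p = 0.00569). The ISRE-binding partners *Stat2* and *Irf9* were at 66.4 to 88.2 CPM in the FXRKO livers and 69.1 to 108 CPM in the BCL6LKOFXRKO livers for *Stat2* and 35.5 to 45.7 CPM in the FXRKO livers and 34.1 to 37.6 CPM in the BCL6LKOFXRKO livers for *Irf9*, and differed by 0.049 ± 0.15 (adjusted p = 0.832) and -0.16 ± 0.12 (adjusted p = 0.336). *Irf1*, which interferon gamma induces directly, was at 62.0, 43.1, 28.5 and 27.2 CPM in the FXRKO livers and 50.8, 51.0, 51.4 and 41.4 CPM in the BCL6LKOFXRKO livers. Its FXRKO livers were more scattered than its BCL6LKOFXRKO livers, with liver 1 above all other livers, and its difference of 0.28 ± 0.23 (adjusted p = 0.405) was called only without liver 1 (0.56, adjusted p = 0.0302).

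**Figure D3:**
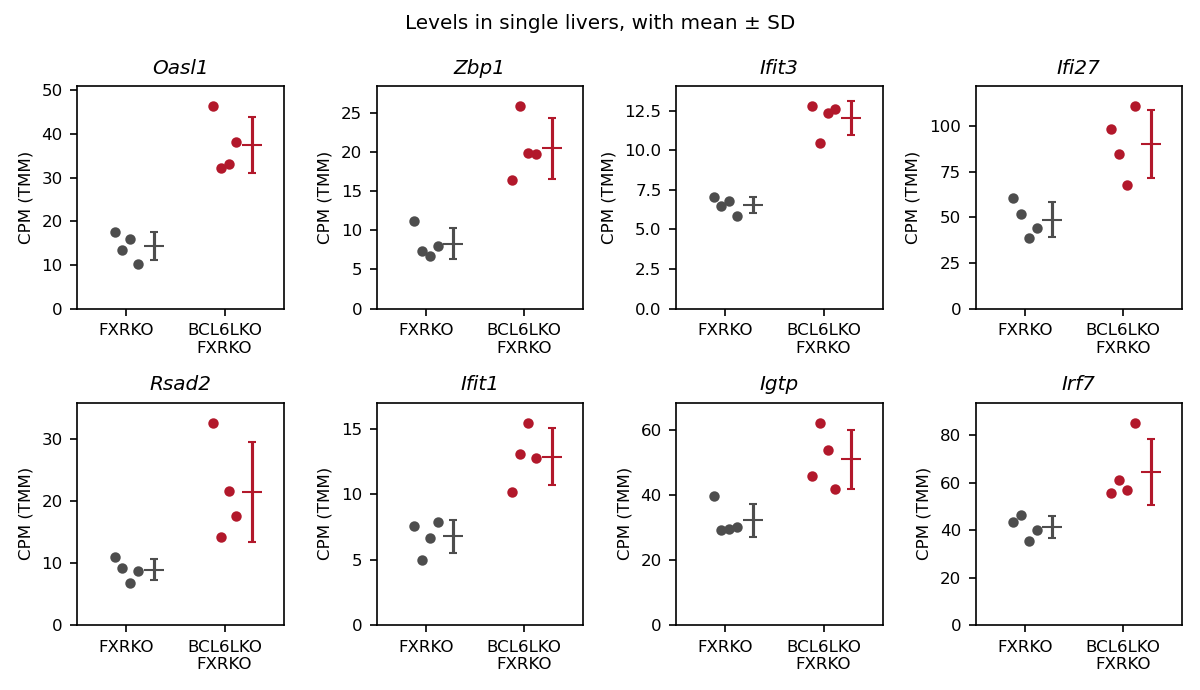
TMM-scaled CPM in single livers (points) with the mean and SD of each genotype (n = 4) for the 8 called members of smallest adjusted p, on axes that start at 0. In each panel all 4 BCL6LKOFXRKO livers lie above all 4 FXRKO livers, most widely for *Oasl1* and least widely for *Igtp*.

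ISG15 is a ubiquitin-like protein that is attached to other proteins, USP18 removes it and dampens receptor signalling, and TRIM25 is a ubiquitin ligase that activates RIG-I. *Trim25* was at 104, 117, 102 and 106 CPM in the FXRKO livers and 133, 141, 149.7 and 139.8 CPM in the BCL6LKOFXRKO livers. The groups were separated with little scatter, and a log2 fold change of 0.39 ± 0.099 (SE, adjusted p = 0.00996) was lost only with total counts alone (0.0972). *Isg15* was at 15.4, 9.997, 7.95 and 6.81 CPM in the FXRKO livers and 12.5, 15.7, 14.2 and 16.7 CPM in the BCL6LKOFXRKO livers, with liver 1 inside the BCL6LKOFXRKO range. Its difference of 0.56 ± 0.22 (adjusted p = 0.0781) was called only without liver 1 (0.84, adjusted p = 0.00572). *Usp18* was at 15.5, 15.9, 15.9 and 13.7 CPM in the FXRKO livers and 18.9, 16.1, 22.1 and 20.6 CPM in the BCL6LKOFXRKO livers, separated by a narrow margin at liver 6, and its 0.35 ± 0.13 (adjusted p = 0.0647) was called only without that liver (0.42, adjusted p = 0.0372).

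The GTPase genes were divided. They encode guanylate-binding proteins (*Gbp2*, *Gbp3*, *Gbp7*, together at mm10 chr3:142530336-142638008) and immunity-related GTPases (*Igtp*, *Irgm1*, *Irgm2*, *Iigp1*) that act on pathogen vacuoles, and all are classic targets of interferon gamma. The neighbours *Igtp* and *Irgm2* (mm10 chr11:58199556-58222783) and *Gbp2* rose, and *Irgm1* and *Iigp1* had lower values that did not pass. *Igtp* was at 39.9, 29.4, 29.7 and 30.3 CPM in the FXRKO livers and 45.9, 62.3, 53.8 and 41.9 CPM in the BCL6LKOFXRKO livers, with a log2 fold change of 0.66 ± 0.15 (SE, adjusted p = 0.00533), called in all 15 alternatives. *Irgm2* was at 51.5, 54.0, 45.4 and 46.5 CPM in the FXRKO livers and 82.3, 107, 96.0 and 44.9 CPM in the BCL6LKOFXRKO livers. Livers 5 to 7 were far above every FXRKO liver while liver 8 was the lowest of all 8, and the call (0.74 ± 0.22, adjusted p = 0.0247) was lost with total counts alone (0.0565) and without liver 3 (0.0626), 4 (0.0644), 5 (0.0507), 6 (0.0606) or 7 (0.0655).

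*Gbp2* was at 5.41, 4.37, 3.12 and 6.15 CPM in the FXRKO livers and 5.44, 11.0, 8.86 and 7.45 CPM in the BCL6LKOFXRKO livers. Liver 5 lay among the FXRKO livers, and a log2 fold change of 0.77 ± 0.25 (SE, adjusted p = 0.0366) was lost with limma voom (0.0614), with total counts alone (0.0712) and without liver 1 (0.0507), 2 (0.0888), 3 (0.105), 6 (0.106) or 7 (0.0741). *Gbp3* and *Gbp7* overlapped between genotypes, with differences of 0.44 ± 0.18 (adjusted p = 0.0741) and 0.64 ± 0.28 (adjusted p = 0.0991). *Gbp3* was called without liver 5 (0.55, adjusted p = 0.0425) and *Gbp7* without liver 8 (0.83, adjusted p = 0.0215).

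*Irgm1*, which controls the effector GTPases of its family, was at 79.7, 67.4, 59.3 and 60.0 CPM in the FXRKO livers and 60.4, 67.6, 70.8 and 38.0 CPM in the BCL6LKOFXRKO livers. *Iigp1*, one of those effectors, was at 311, 259.9, 234 and 223 CPM in the FXRKO livers and 176, 287, 220.2 and 127 CPM in the BCL6LKOFXRKO livers. In both, liver 8 was lowest of all 8 and the genotypes overlapped. The differences were -0.17 ± 0.18 (adjusted p = 0.499) for *Irgm1* and -0.34 ± 0.21 (adjusted p = 0.246) for *Iigp1*, and *Iigp1* was called lower without liver 6 (-0.57, adjusted p = 0.0374). The guanylate-binding genes are close copies of one another, so their counts rest on reads with 1 location.

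In the last group 1 of 6 genes was higher (16.7%), near the 16.2% of all tested genes. The gene was *Ifi27* (mm10 chr12:103434189-103440245), which encodes a small membrane protein of mitochondria and nucleus. It was at 60.5, 51.6, 38.5 and 44.0 CPM in the FXRKO livers and 98.3, 84.7, 67.5 and 111 CPM in the BCL6LKOFXRKO livers, which gave a log2 fold change of 0.89 ± 0.17 (SE, adjusted p = 0.00169), called in all 15 alternatives. *Xaf1*, a pro-apoptotic protein, was separated at low levels, 4.73 to 5.20 CPM in the FXRKO livers and 5.64 to 6.72 CPM in the BCL6LKOFXRKO livers, without a call (0.30 ± 0.17, adjusted p = 0.198). *Ifi35* and *Ifi44* overlapped between genotypes, with 0.44 ± 0.16 (adjusted p = 0.0592) and 0.29 ± 0.46 (adjusted p = 0.665), and *Ifi35* was called without liver 5 (0.57, adjusted p = 0.0172). The ADP-ribosyltransferase genes *Parp9* and *Parp14* were at 44.5 to 53.5 CPM in the FXRKO livers and 33.0 to 47.4 CPM in the BCL6LKOFXRKO livers for *Parp9* and 25.1 to 36.6 CPM in the FXRKO livers and 26.4 to 38.5 CPM in the BCL6LKOFXRKO livers for *Parp14*, with differences of -0.25 ± 0.13 (adjusted p = 0.153) and 0.017 ± 0.16 (adjusted p = 0.946). *Parp9* overlaps *Dtx3l*, the gene of its partner ubiquitin ligase, by 558 bases on the opposite strand, and *Dtx3l* was called lower. The stated counting options name no strand, so reads in that overlap cannot be assigned to either gene.

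The members differed widely in level per transcript length. *Bst2* was highest, at mean RPKM of 159 in FXRKO and 208 in BCL6LKOFXRKO livers, followed in FXRKO livers by *Iigp1* (82.4) and *Ifi27* (46.6). In BCL6LKOFXRKO livers *Ifi27* (86.5) and *Iigp1* (65.0) had changed places. *Oas3* was lowest in both, at 0.44 and 0.71 RPKM. The called members were thus found at both ends, from *Oas1g* at 0.49 RPKM to *Ifi27* at 46.6 RPKM in FXRKO livers.

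Single livers differed in how strongly the members were expressed. The median over the 39 members of the log2 level relative to the FXRKO mean was 0.15, 0.029, -0.12 and -0.081 in FXRKO livers 1 to 4 and 0.24, 0.59, 0.53 and 0.42 in BCL6LKOFXRKO livers 5 to 8. The genotypes did not overlap, liver 5 was closest to the FXRKO livers, and the pooled SD within genotype was 0.14. Liver 1 was the highest FXRKO liver for 19 of 39 members (48.7%), against 26.5% of all tested genes. The lowest FXRKO value was in liver 3 for 16 members (41.0%, against 24.6% of all tested genes) and in liver 4 for 15 (38.5%, against 25.6%).

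Among BCL6LKOFXRKO livers the highest value was in liver 7 for 13 members (33.3%, against 24.2% of all tested genes) and in liver 6 for 12 (30.8%, against 24.8%). The lowest was in liver 8 for 15 (38.5%) and in liver 5 for 13 (33.3%, against 18.7%). Liver 8 was lowest for 5 of the 7 GTPase genes and highest for 0 of them, while among the other 32 members it was lowest for 10 and highest for 9. Over all tested genes liver 8 was the lowest of its genotype for 34.1% and the highest for 32.7%. The median ratio of the highest to the lowest liver within a genotype was 1.40 in FXRKO and 1.62 in BCL6LKOFXRKO livers over all members, and 1.36 and 2.03 over the GTPases.

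**Figure D4:**
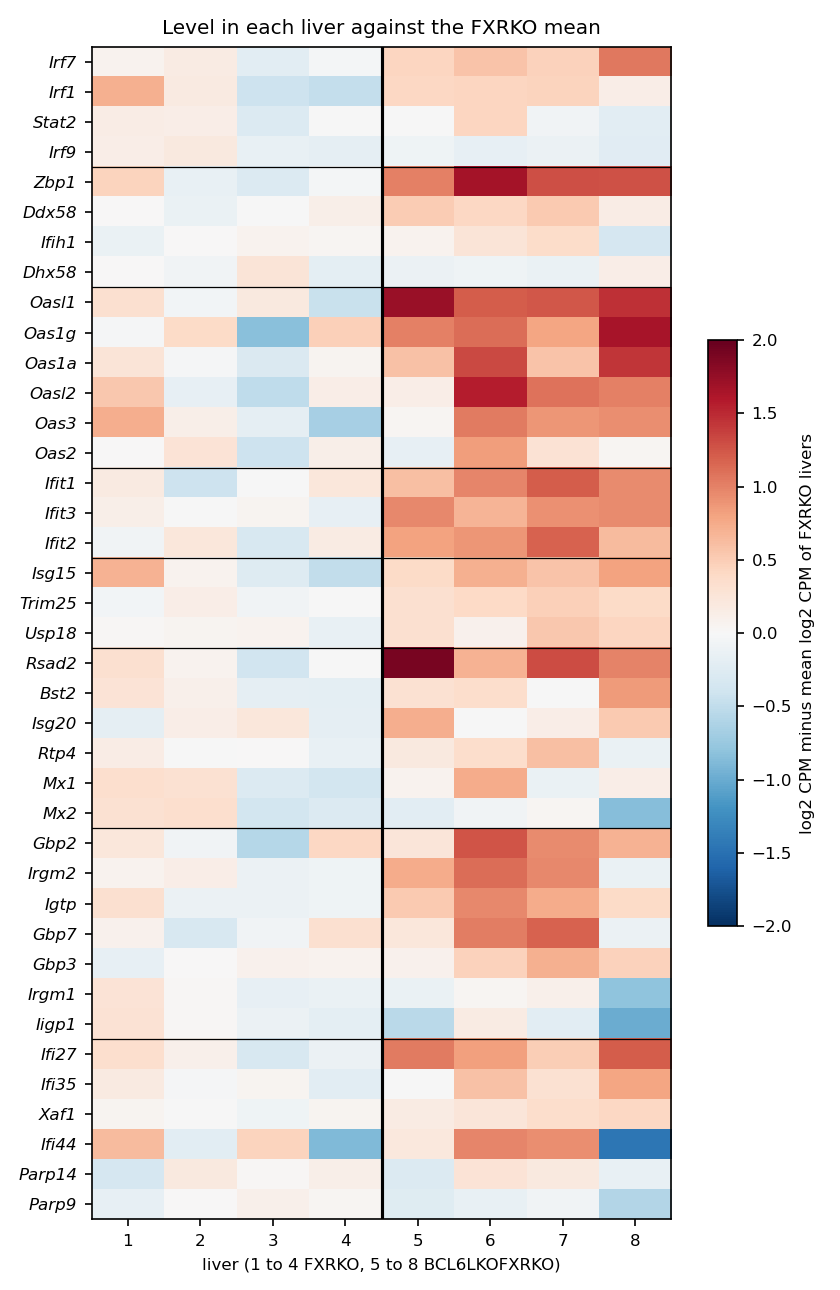
Log2 CPM of each member in each liver minus its mean log2 CPM in the 4 FXRKO livers, with members in the order of the plot of fold changes and a black line between genotypes. Red fills most of the BCL6LKOFXRKO side for the *Oas* and *Ifit* families. Liver 8 turns pale or blue for several members, among them the GTPase genes *Irgm1*, *Irgm2*, *Gbp7* and *Iigp1*. It does so also outside the GTPases, as for *Ifi44*, *Mx2*, *Parp9* and *Ifih1*.

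The steps upstream of these genes were followed with a list of 157 further genes of interferon signalling, of which 156 were in the table and 120 were tested. Transcripts of the interferons themselves were at or below the limit of detection at this depth. Of 21 ligand genes, 20 had 0 counts in every liver, which allows up to 0.375 CPM in the shallowest liver for a floor of 3 counts. *Ifng*, the gene of interferon gamma, had 1 count in liver 1 and 1 in liver 7. The floor covers counting error only, and the ligands could not be tested. Reads shared by similar ligand genes were counted only where they mapped to 1 location, and the floor does not cover those left out.

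Among receptor and kinase transcripts, *Il10rb* and *Tyk2* rose. Of the 5 tested receptor genes 1 was higher (20%) and 0 lower, against 16.2% and 13.5% of all tested genes. The receptors therefore did not stand apart from the background, and *Tyk2* was the only kinase called. *Il10rb*, a chain shared by the receptors of type III interferon and interleukin-10, was at 10.2, 10.7, 8.38 and 9.56 CPM in the FXRKO livers and 14.7, 18.4, 16.6 and 16.2 CPM in the BCL6LKOFXRKO livers, and was higher without overlap, with a log2 fold change of 0.76 ± 0.14 (SE, adjusted p = 0.00137). Its partner *Ifnlr1* was too low to test, at 0 to 4 counts in FXRKO and 4 to 10 counts in BCL6LKOFXRKO livers. The type I receptor chains gave -0.15 ± 0.11 (adjusted p = 0.329) for *Ifnar1* and 0.26 ± 0.097 (adjusted p = 0.0603) for *Ifnar2*, and the type II chains 0.28 ± 0.17 (adjusted p = 0.228) for *Ifngr1* and 0.14 ± 0.14 (adjusted p = 0.462) for *Ifngr2*. *Tyk2*, a kinase of the type I and III receptors, was at 31.6, 33.4, 29.3 and 29.9 CPM in the FXRKO livers and 40.8, 40.2, 42.2 and 37.5 CPM in the BCL6LKOFXRKO livers, with a log2 fold change of 0.37 ± 0.10 (SE, adjusted p = 0.0174). *Jak1*, *Jak2* and *Stat3* were not called either, with -0.29 ± 0.12 (adjusted p = 0.0935), 0.22 ± 0.17 (adjusted p = 0.354) and -0.090 ± 0.20 (adjusted p = 0.765).

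Of 12 tested sensors and adaptors, 2 were higher (16.7%) and 1 lower (8.33%), against 16.2% and 13.5% of all tested genes, so the group did not stand apart from the background. The 3 are named here after their values were seen. *Tmem173*, which encodes the DNA-sensing adaptor STING, was higher at 1.89 to 3.02 CPM in the FXRKO livers and 4.68 to 5.81 CPM in the BCL6LKOFXRKO livers, a change of 1.04 ± 0.21 (adjusted p = 0.00278). *Irf8*, a factor of myeloid cells, was higher by 0.62 ± 0.17 (adjusted p = 0.017) with overlapping livers. *Mavs*, the mitochondrial adaptor of RIG-I and MDA5, was lower at 109 to 119 CPM in the FXRKO livers and 65.8 to 105 CPM in the BCL6LKOFXRKO livers, a change of -0.44 ± 0.14 (adjusted p = 0.0279). The 9 tested negative regulators had 1 gene called in each direction (11.1%), below the share over all tested genes. *Irf2*, which competes with IRF1 for its sites, was lower (-0.80 ± 0.16, adjusted p = 0.00278) and *Ptpn6*, a phosphatase of blood cells, was higher (0.44 ± 0.14, adjusted p = 0.0318), also named after their values were seen.

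The further induced genes had more rises than falls. Of 89 tested, 34 were higher (38.2%, against 16.2% of all tested genes), 5 were lower (5.62%, against 13.5%), 50 were not called, and their median log2 fold change was 0.37. By smallest adjusted p the leading rises were *Gbp9*, *Mlkl* and *Zc3hav1*. *Gbp9*, a guanylate-binding gene, was at 4.89, 5.75, 5.70 and 6.34 CPM in the FXRKO livers and 20.1, 24.4, 24.8 and 18.5 CPM in the BCL6LKOFXRKO livers, with a log2 fold change of 1.95 ± 0.16 (SE, adjusted p = 1.47e-06). *Mlkl*, the executor of necroptosis downstream of ZBP1 and RIPK3, was at 7.08, 5.75, 6.77 and 6.15 CPM in the FXRKO livers and 17.7, 20.1, 22.5 and 23.9 CPM in the BCL6LKOFXRKO livers, with a log2 fold change of 1.71 ± 0.15 (SE, adjusted p = 3.35e-06). *Zc3hav1*, which encodes the zinc finger antiviral protein, was at 38.9, 40.6, 43.4 and 41.9 CPM in the FXRKO livers and 92.6, 75.5, 111 and 82.1 CPM in the BCL6LKOFXRKO livers, with a log2 fold change of 1.13 ± 0.13 (SE, adjusted p = 3.03e-05). In all 3 the genotypes were far apart.

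The 5 lower genes ran against the rest. *Ifitm3*, which blocks viral fusion, was at 424, 382, 339 and 377 CPM in the FXRKO livers and 223, 295, 186 and 226 CPM in the BCL6LKOFXRKO livers, with a log2 fold change of -0.71 ± 0.14 (SE, adjusted p = 0.00245). *Lap3*, an aminopeptidase, was at 299, 329.8, 320.1 and 280.4 CPM in the FXRKO livers and 246, 235, 232 and 234 CPM in the BCL6LKOFXRKO livers, with a log2 fold change of -0.38 ± 0.10 (SE, adjusted p = 0.0155). *Dtx3l* was at 36.6, 53.7, 42.6 and 41.6 CPM in the FXRKO livers and 27.4, 35.2, 33.3 and 21.5 CPM in the BCL6LKOFXRKO livers, with a log2 fold change of -0.57 ± 0.16 (SE, adjusted p = 0.0196). All 4 BCL6LKOFXRKO livers were below the FXRKO livers for these 3 genes. *Gm4951* (-0.54 ± 0.16, adjusted p = 0.0267) and *Phf11c* (-0.81 ± 0.29, adjusted p = 0.0478) were the others, named after their values were seen. The whole pathway list had 39 of 120 tested genes higher (32.5%) and 7 lower (5.83%), against 16.2% and 13.5% of all tested genes. The number higher was 26 without liver 3, 29 without liver 2 and 27 with total counts alone. In those fits 12.6%, 12.9% and 11.4% of all tested genes were higher. The number lower was 2 without liver 2 and 4 without liver 4, and 12 with total counts alone. In those fits 10.2%, 10.3% and 23.9% of all tested genes were lower.

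Markers of some other liver cells were called more often than the 16.2% higher and 13.5% lower of all tested genes. Of 14 markers of Kupffer cells and macrophages, which also respond to interferon, 6 were higher (42.9%) and 0 lower, and their summed level was 548 to 757 CPM in FXRKO livers and 780.0 to 1291 CPM in BCL6LKOFXRKO livers. Livers 5 to 7 were at 780.0, 841 and 866 CPM and liver 8 at 1291 CPM. The 6 higher markers, named after their values were seen, were *Cd68*, *C1qa*, *C1qb*, *C1qc*, *Ccr2* and *Lyz2*. *Adgre1*, *Clec4f*, *Vsig4*, *Cd5l*, *Timd4*, *Marco*, *Csf1r* and *Itgam* were not called. T cell and NK cell markers summed to 3.25 to 3.78 and 7.86 to 12.5 CPM, with 0 of 12 abundant enough to test. B cell and plasma cell markers summed to 5.25 to 8.81 and 9.95 to 16.0 CPM, with 1 of 2 tested genes higher.

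Of the 7 markers of plasmacytoid dendritic cells, the main producers of type I interferon in blood, 2 were abundant enough to test. *Tcf4* was not called (0.14 ± 0.18, adjusted p = 0.586), and *Ly6d* was called higher (3.60 ± 0.81, adjusted p = 0.0154). The FXRKO livers were widely scattered for *Ly6d*, at 0.25 to 10.6 CPM, against 26.9 to 72.1 CPM in BCL6LKOFXRKO livers. *Siglech*, a defining marker, had 1 to 3 counts per FXRKO liver and 2 to 8 per BCL6LKOFXRKO liver, too few to test. Neutrophil markers were higher for 2 of 3 tested genes, stellate cell and fibroblast markers for 5 of 8 and cholangiocyte markers for 2 of 4. Sinusoidal endothelial markers, at 1 of 9 (11.1%), were below the 16.2% of all tested genes, and none of these lists had a member called lower. Of 8 hepatocyte markers 1, *Alb*, was higher and 4 were lower. No marker was at 0 in all livers. The part of any of these cells in the values of the interferon-stimulated genes was not tested.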

How the data were processed

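Liver RNA of 4 FXRKO and 4 BCL6LKOFXRKO males was compared. The authors prepared stranded polyA libraries, mapped their single-end reads of 100 bp with STAR 2.5.2 on mm10 (1 location, at most 4 mismatches) and deposited raw counts on exons from HOMER 4.10, with 1 transcript kept per gene and no strand option named. The 39 members, the pathway list and the marker lists were chosen with earlier results of these data known.

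These counts were fitted with edgeR 4.0.16 in R 4.3.3 (filterByExpr, TMM normalization, robust quasi-likelihood test, Benjamini-Hochberg adjustment over 12340 genes). The threshold for a call was an adjusted p of 0.05. CPM used the TMM factors, and RPKM the deposited transcript lengths. Standard errors were derived from the F statistic. Livers were separated if no value of 1 genotype reached the range of the other. Totals of 7586241 to 11839503 counts limit the precision of low genes, and p-values weigh the difference between genotypes against the spread between these livers. The script was tested on simulated data. Alternatives were DESeq2 1.42.0, limma 3.58.1 voom with quality weights, RLE factors, total counts alone, the 50 most counted genes left out, omission of the filter or of each liver in turn, a minimum of 10 counts per liver, and, for counts of genes, a log2 fold change above 0.5. Those for the pathway list were added after seeing the data. Named were all members, the ligands, receptors, kinases and STATs (1 of these genes is left unreported), and the 3 further induced genes of smallest adjusted p in each direction with a mean of at least 50 counts. Promoters were printed for up to 4 called members with an ISRE core by smallest adjusted p.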

Additional observations from a re-analysis of the deposited data

Results flagged for a closer look

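Of 78 comparisons of a member within a genotype, 2 had 1 liver apart from the other 3 by Dixon's ratio (gap to the nearest liver over the whole range), and chance gives about 1 in 20, or 4. *Igtp* was at 39.9 CPM in FXRKO liver 1 against 29.4 to 30.3 CPM in the other FXRKO livers (ratio 0.913). *Irf1* was at 41.4 CPM in BCL6LKOFXRKO liver 8 against 50.8 to 51.4 CPM in livers 5 to 7 (ratio 0.934).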

How the results depend on the processing

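Of the 16 called members, 10 kept their call in every alternative run, and 6 lost it in at least 1 (*Ddx58*, *Oas1g*, *Oasl2*, *Trim25*, *Gbp2* and *Irgm2*). Without 1 liver, 11 to 16 members were higher and 0 to 1 lower (*Iigp1*, without liver 6), and the median log2 fold change was 0.39 to 0.50. Over all tested genes those fits called 12.6 to 15% higher and 10.1 to 13.5% lower. With total counts alone 12 members were higher and 1 (*Parp9*) lower, against 11.4% and 23.9% of all tested genes, and the members' median was 0.24. Of the 23 others, 11 were called in 1 alternative. The pathway list had 26 to 36 genes higher and 2 to 8 lower without 1 liver, and 27 higher and 12 lower with total counts alone. Of the members near 0, 5 changed sign. *Stat2* went to -0.12 with total counts alone and ran from -0.11 to 0.13 without 1 liver, *Ifih1* went to -0.050 with total counts alone, *Dhx58* ran from -0.12 to 0.036 and *Mx1* from -0.0069 to 0.31 without 1 liver. *Parp14* was at -0.00125 with DESeq2, -0.026 with voom, -0.14 with total counts alone, -0.0038 without the 50 most counted genes and -0.0077 without a filter, and ran from -0.089 to 0.11 without 1 liver. The cause was not tested. *Oas1g* and *Ifi44* had under 10 counts in some liver and no value under that filter. No paired analysis was possible because the labels give the genotypes no shared replicate numbers and name no pairs. The animal numbers in the labels are consecutive over livers 2, 7, 3, 8 and 4, in that order, and over livers 1 and 6. The number of liver 5 is well apart from the others. What the numbers mark is not stated, and they were not used to pair livers. Depth limits the members at a few CPM.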
